A study of Rattus norvegicus with 20 samples.

Results

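The genes for the subunits of the oxidative phosphorylation machinery were followed across 4 groups of cultured rat islets. They were taken by symbol: every measured gene starting with Nduf, Uqcr, Cox4, Cox5, Cox6, Cox7, Cox8 or Atp5, and the succinate dehydrogenase genes Sdha, Sdhb, Sdhc and Sdhd. This gave 86 of 14217 measured genes, of which 34 encode subunits of complex I, 4 of complex II, 7 of complex III, 17 of complex IV and 15 of complex V. Another 7 are assembly factors caught by the same prefixes and 2 are neither: Atp5if1, the inhibitor of ATP synthase, and the pseudogene Cox6c-ps1. Cytochrome c belongs to the rule but was not analysed here, because its probe sets carry several symbols, as do 9 probe sets of genes under the rule in all. Where a gene had several probe sets of its own, the brightest stood for it. The rule uses symbols only, and all 86 members entered every test.

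Islets came from male Wistar rats aged 8 weeks and were cultured with 10% serum and 8 mM glucose. The 4 groups were untreated islets, islets given an adenovirus for green fluorescent protein (GFP), and islets given an adenovirus for Nr4a1 or for Nr4a3, transcription factors of the orphan nuclear receptor family. Virus was present for 18 h and islets were collected 48 h after it was added. Each group had 5 samples, each on its own Affymetrix rat array. The labels conflict: titles, characteristics and the series design name these viruses, while the treatment protocol names viruses for beta-galactosidase and Nkx6.1. Groups are called here as the titles call them. The replicates are labelled biological, but the animals behind them are not given, so p-values measure the spread between these samples.

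The respiratory chain moves electrons from NADH (through complex I) and succinate (through complex II) by way of complex III and cytochrome c to oxygen at complex IV, and complex V uses the proton gradient this builds to make ATP. In beta cells the ATP made from glucose closes potassium channels in the plasma membrane and so starts insulin release. Nuclear genes encode most subunits, and the remaining ones, encoded in mitochondrial DNA, were not analysed here.

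An islet is a mix of hormone cells and other cells, and the samples also held RNA of exocrine tissue. Ins1, the gene for an insulin, had a mean log2 intensity of 14.9 to 15.0 in every group, and Gcg, the gene for glucagon, of 14.7 to 14.8. Of 12 acinar marker genes most encode digestive enzymes. Their mean lay at 7.20 to 10.8 in untreated, 7.06 to 9.76 in GFP, 10.4 to 11.8 in Nr4a1 and 9.24 to 10.1 in Nr4a3 arrays. Acinar markers were thus higher in every Nr4a1 array than in any GFP array. All 12 rose in that comparison, as did 6.16% of all genes. The probe set of Nr4a1 lay at 5.82 to 6.11 in Nr4a1 arrays and 5.98 to 6.20 in GFP arrays, and that of Nr4a3 at 5.64 to 6.10 in Nr4a3 arrays and 5.45 to 5.83 in GFP arrays. The Nr4a3 probe set was highest on average in the Nr4a1 arrays, at 5.87 to 6.18, above every GFP array. The labels do not tell whether the delivered sequences cover these probe sets, so their levels cannot check the labels. A library of the Nr4a3 group, replicate 2, was unlike the other 19 arrays. Across genes it correlated with them at 0.941 on average, where the others reached 0.982 to 0.989. Its actin control had a 3' probe set 4.62 log2 units above the 5' one, a gap of 1.50 to 2.21 elsewhere. For the Gapdh control the gap was 2.06 against 0.27 to 0.74. This gap is a usual measure of RNA integrity and widens when RNA is degraded. In Nr4a1 arrays the Gapdh gap was 0.27 to 0.36, below every GFP array (0.50 to 0.74). Results that involve the spread or mean of the Nr4a3 group are therefore given with and without that array.

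**Figure D1:**
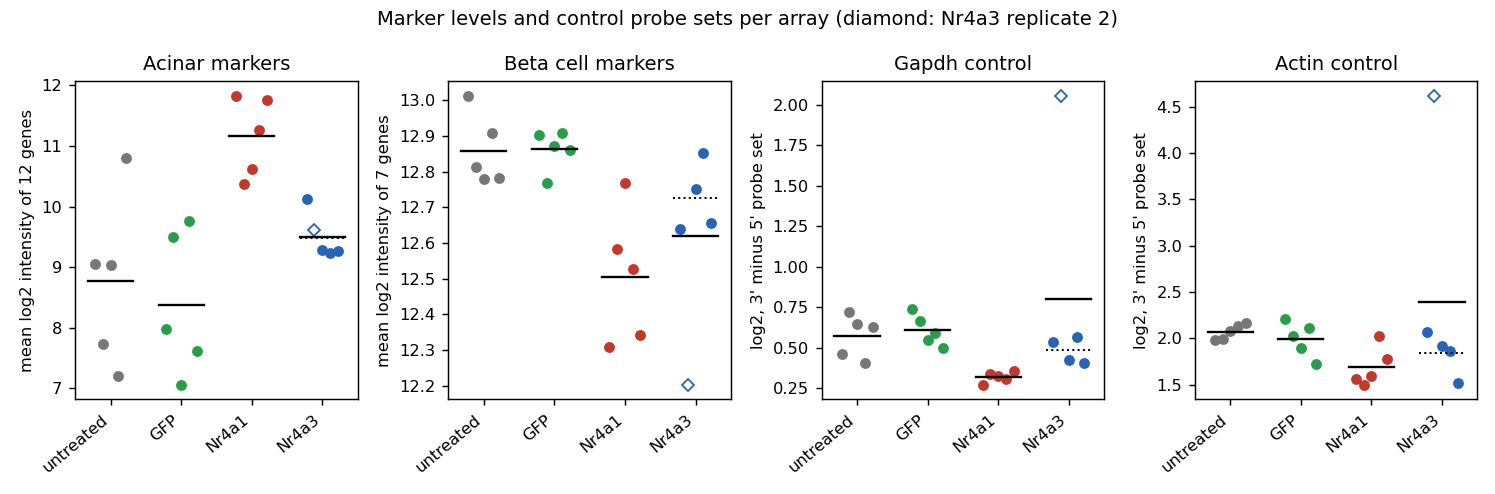
Acinar and beta cell marker means and the 3' minus 5' differences of the Gapdh and actin control probe sets, on a log2 scale (vertical axes), for each array of the 4 groups (horizontal axes). Solid lines are group means, dotted lines the Nr4a3 mean without replicate 2, drawn as a diamond. All Nr4a1 arrays lie above all GFP arrays for acinar markers and below them for the Gapdh difference, and Nr4a3 replicate 2 lies far above all others in both control panels.

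In islets given the Nr4a1 virus, 4 members from 4 complexes rose against GFP and none fell: Ndufab1 in complex I, Sdha in complex II, Uqcr10 in complex III and Atp5mpl in complex V. Most other members differed in the same direction by small amounts. Of the 86 members, 75 had a log2 difference above 0, and the median difference was 0.15, against 0.00 over all genes. In 34 members every Nr4a1 array was higher than every GFP array, and in none was every one lower, whereas 10.6% of all genes had groups apart in the higher direction. The threshold for a call was an adjusted p under 0.05 in limma (moderated two-sided test, Benjamini-Hochberg over all genes). Over all 20 arrays 6.16% of all genes were called higher, so the 4 of 86 members (4.65%) are not above the background share. At an unadjusted p under 0.05, 12 of 86 members differed, all higher, where 11.8% of all genes were higher, again near the background.

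The count of calls depended on 1 array outside the comparison. Nr4a3 replicate 2 belongs to neither group, but all arrays share 1 estimate of each gene's spread, and this array raised it. Without it the differences between Nr4a1 and GFP are the same, the members' median standard error fell from 0.12 to 0.06, and 30 members were called, all higher, with the first 4 among them. Of all genes 12.2% were then called higher. The 30 were 12 of 34 in complex I, 2 of 4 in complex II, 3 of 7 in complex III, 4 of 17 in complex IV and 9 of 15 in complex V, with 0 of 7 assembly factors. A fit to only the 10 arrays compared called 31, of which 27 were shared with the 30.

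The medians of the complexes in Nr4a1 minus GFP were 0.14 for I, 0.16 for II, 0.17 for III, 0.12 for IV and 0.20 for V. The assembly factors had 0.10. Of the 17 complex IV genes 4 lay below 0: Cox6a2, Cox7a1, Cox7b2 and Ndufa4l2. The set also holds isoforms with dim probe sets, Cox7b2, Cox6b2 and Cox8b, at mean log2 intensities of 3.63, 4.37 and 4.42. The part of such isoforms in the lower values of complex IV was not tested. Repeating the quantile normalization lowered these complex medians to between 0.06 and 0.13, and none changed sign. The acinar markers and the Gapdh control move with the same groups, and their part in these differences was not tested. In such bulk samples, fewer cells of a type and less RNA per cell cannot be told apart.

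**Figure D2:**
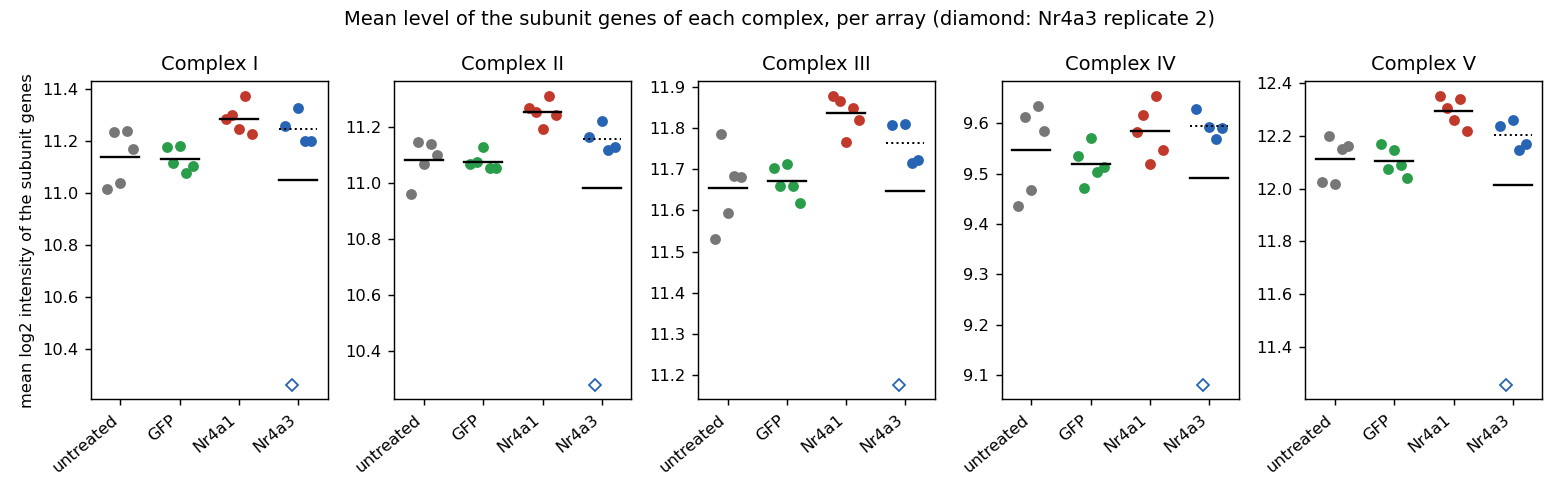
Mean log2 intensity of the subunit genes of complexes I to V (vertical axes, 1 panel each) in every array of the 4 groups. Solid lines are group means, the dotted line is the Nr4a3 mean without replicate 2, drawn as a diamond. In complexes I, II, III and V every Nr4a1 array lies above every GFP array, and in complex IV they overlap.

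The mean level of the 34 complex I genes was 11.18, 11.11, 11.18, 11.08 and 11.10 in GFP arrays 1 to 5 and 11.28, 11.30, 11.24, 11.37 and 11.23 in Nr4a1 arrays. In Nr4a3 arrays it was 11.26, 10.26, 11.32, 11.20 and 11.20, and in untreated arrays 11.01, 11.23, 11.04, 11.24 and 11.17. The Nr4a1 arrays were all above the GFP arrays and overlapped the untreated range only at its top, and Nr4a3 replicate 2, the second value of its group, was far below every other array. For complex V the mean was 12.17, 12.07, 12.15, 12.09 and 12.04 in GFP, 12.35, 12.31, 12.26, 12.34 and 12.22 in Nr4a1 and 12.24, 11.26, 12.26, 12.15 and 12.17 in Nr4a3 arrays. The order was the same: Nr4a1 arrays were above all GFP arrays, and Nr4a3 replicate 2 was far below everything else. Complex IV means were 9.53, 9.47, 9.57, 9.50 and 9.51 in GFP and 9.58, 9.62, 9.52, 9.65 and 9.55 in Nr4a1 arrays, and these ranges overlapped.

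Nuclear genes of the respiratory chain are described as targets of shared regulators, among them NRF1, GABPA (NRF2), YY1 and ESRRA, and NR4A receptors bind the element AAAGGTCA. Exact matches to these letters were sought on both strands from 250 bases before to 50 bases after the start of each gene in RefSeq's promoter table (GRCr8), which held 78 of the 86 members and 11700 of the array's genes. YY1's AAGATGGCG was in 11 member promoters (14.1%) against 3.14% of the array's genes, and GABPA's CCGGAAGT in 8 (10.3%) against 6.82%. NRF1's TGCGCATGC was in 5 (6.41%) against 2.32%, ESRRA's TCAAGGTCA in 2 (2.56%) against 0.21%, and the NR4A element in 1 (1.28%) against 1.05%. Over all 27457 promoters of the table the shares were 1.93%, 4.01%, 1.47%, 0.41% and 1.29% in the same order. The ESRRA and NR4A motifs both contain AGGTCA, though no member held both. A match describes letters in this window and is no evidence of binding. The array gives no build, so the coordinates below are RefSeq's alone.

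These 4 stretches, chosen after the matches were seen, show the motif (capitals) in promoters of a member called over all arrays, of members called without Nr4a3 replicate 2 and of a member with overlapping NRF1 matches.
Atp5mpl (minus strand, chr6:136845592-136845621, just after the start, NR4A element on the opposite strand): tgcgtgctctgTGACCTTTcccattctgtc
Atp5mc3 (minus strand, chr3:79220665-79220764, ESRRA motif on the opposite strand): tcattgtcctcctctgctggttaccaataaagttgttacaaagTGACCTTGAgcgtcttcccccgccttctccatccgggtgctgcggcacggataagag
Uqcrh (minus strand, chr5:134790883-134790982, GABPA motif on the opposite strand): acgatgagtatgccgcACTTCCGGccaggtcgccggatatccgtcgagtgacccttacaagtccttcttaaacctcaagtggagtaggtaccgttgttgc
Ndufa11 (plus strand, chr9:1637494-1637613, 4 overlapping NRF1 matches): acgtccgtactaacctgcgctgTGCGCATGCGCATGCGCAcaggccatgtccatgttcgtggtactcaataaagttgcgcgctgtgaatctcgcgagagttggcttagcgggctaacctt

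Atp5mpl is the only member with the NR4A element in the window, 31 bases after the annotated start, and it is among the 4 members that rose with Nr4a1. The other 3 had no such match in this window. Of the 11 members with the YY1 motif, Atp5mf, Atp5pf and Ndufs7 were called in Nr4a1 against GFP without Nr4a3 replicate 2, and 0 were called over all arrays. Without that replicate 30 of all 86 members (34.9%) and 12.2% of all genes were called higher, so these 3 are no more than the members' share.

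Complex I takes electrons from NADH. Ndufab1, an acyl carrier protein that is also a subunit of complex I and serves mitochondrial fatty acid synthesis, lay at 11.62, 11.49, 11.54, 11.48 and 11.45 in GFP arrays, 12.12, 12.05, 11.89, 12.24 and 11.90 in Nr4a1 arrays, 11.85, 11.49, 11.91, 11.58 and 11.68 in Nr4a3 arrays and 11.32, 11.67, 11.43, 11.66 and 11.68 in untreated arrays. The Nr4a1 arrays were above every GFP and untreated array and only the highest Nr4a3 array reached into their range. Ndufab1 rose by 0.52 ± 0.10 (log2, SE, n = 5 a group, 1.44-fold) against GFP, with an adjusted p of 0.0014 in limma. It was called under each of 29 alternatives fitted (adjusted p 2.53e-05 to 0.00594).

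Ndufs1 and Ndufv1 form part of the peripheral arm where electrons enter. Their differences in Nr4a1 minus GFP were 0.02 ± 0.12 and 0.11 ± 0.17 (SE, limma adjusted p 0.969 and 0.829), and neither was called without Nr4a3 replicate 2. Ndufs3, Ndufs7 and Ndufa8, named after their values were seen because they alone were called in Nr4a3 against GFP without replicate 2, had differences of 0.30, 0.39 and 0.40 in Nr4a1 minus GFP. The accessory subunit Ndufs4 had 0.17 ± 0.07 with groups apart (limma adjusted p = 0.156), and Ndufc2 had 0.16 ± 0.08 with groups that overlapped (limma adjusted p = 0.256).

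Complex II oxidizes succinate and is also an enzyme of the citric acid cycle. Sdha, its flavoprotein and catalytic subunit, lay at 9.62, 9.64, 9.72, 9.51 and 9.50 in GFP, 9.88, 9.97, 9.76, 9.98 and 9.90 in Nr4a1, 9.85, 9.54, 9.79, 9.66 and 9.61 in Nr4a3 and 9.50, 9.69, 9.63, 9.67 and 9.62 in untreated arrays. All Nr4a1 arrays were above all GFP and untreated arrays, and the lowest of them lay within the Nr4a3 range. Sdha rose by 0.30 ± 0.07 (log2, SE, 1.23-fold) against GFP with a limma adjusted p of 0.012, and it was called under each of 29 alternatives (adjusted p 0.000957 to 0.0393). Sdhb, the iron-sulfur subunit, had a difference of 0.10 ± 0.25 (limma adjusted p = 0.912). Sdhd, a membrane anchor, had 0.18 ± 0.09 (limma adjusted p = 0.293), which was called without Nr4a3 replicate 2 (adjusted p = 0.0209).

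Complex III passes electrons to cytochrome c. Uqcr10, a small subunit, lay at 12.19, 12.22, 12.18, 12.09 and 12.05 in GFP, 12.39, 12.41, 12.27, 12.45 and 12.31 in Nr4a1, 12.28, 12.46, 12.32, 12.19 and 12.23 in Nr4a3 and 12.16, 12.29, 12.06, 12.15 and 12.20 in untreated arrays. Nr4a1 arrays were all above GFP arrays but overlapped the untreated and Nr4a3 arrays, and here Nr4a3 replicate 2 was the highest array of all. Uqcr10 rose by 0.22 ± 0.07 (log2, SE, 1.17-fold), with a limma adjusted p of 0.0436 close to the threshold. The call was lost without any 1 of 13 of the 20 arrays: GFP replicates 1 to 5, Nr4a1 replicates 1, 2, 4 and 5, Nr4a3 replicates 1, 3 and 5, and untreated replicate 4. Over its 29 alternatives the adjusted p ran from 0.00277 to 0.251. The core protein Uqcrc1 had 0.01 ± 0.11 (limma adjusted p = 0.986). Uqcrfs1, the Rieske iron-sulfur protein, had 0.23 ± 0.19 (limma adjusted p = 0.593), Uqcrh, the hinge protein, had 0.22 ± 0.09 (adjusted p = 0.172) and Uqcrq had 0.17 ± 0.15 (adjusted p = 0.614). Uqcrfs1 and Uqcrh were called without Nr4a3 replicate 2, with adjusted p of 0.00826 and 0.0386.

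Complex IV reduces oxygen, and several of its subunits exist as isoforms that differ between tissues. No member of complex IV was called in Nr4a1 against GFP over all arrays. At an unadjusted p under 0.05, 1 of 17 was higher, where 11.8% of all genes were. Without Nr4a3 replicate 2, Cox4i1, Cox6a1, Cox6c and Ndufa4 were called, with differences of 0.19 ± 0.05, 0.25 ± 0.06, 0.16 ± 0.05 and 0.16 ± 0.05 (limma adjusted p 0.0136, 0.0101, 0.0365 and 0.0441). They are 23.5% of the 17, where 12.2% of all genes were called higher.

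The ubiquitous isoforms and their tissue-restricted partners can be read side by side in Nr4a1 minus GFP, each against its own probe set. Cox4i1 had 0.19 ± 0.30 and Cox4i2, known from lung and low oxygen, 0.09 ± 0.15 (SE over all arrays). Cox6a1 had 0.25 ± 0.32 and the muscle isoform Cox6a2 -0.18 ± 0.30. Cox6b1 had 0.16 ± 0.14 and the testis isoform Cox6b2 0.00 ± 0.08. Cox8a had 0.04 ± 0.09 and the muscle isoform Cox8b 0.02 ± 0.10, and the muscle isoform Cox7a1 had -0.13 ± 0.09, while its partner Cox7a2 was not analysed here because its probe set carries several symbols. Ndufa4 had 0.16 ± 0.08 and its paralog Ndufa4l2, a known target of the hypoxia factor HIF1, -0.18 ± 0.17. None of these was called over all arrays, and the difference between partners was not tested. Cox6b2 and Cox8b were dim, at mean log2 intensities of 4.37 and 4.42, against 11.8 for Cox6b1 and 12.8 for Cox8a. Their small differences therefore say little about these isoforms. Cox7c, a small accessory subunit, had 0.15 ± 0.10 with groups apart (limma adjusted p = 0.47). Cox5a has another probe set that carries several symbols and was left out, and on the one used its difference was 0.17 ± 0.24 (limma adjusted p = 0.806). The probe set left out was brighter, at a mean log2 intensity of 12.3 against 7.90. It was 0.29 higher in Nr4a1 than in GFP arrays, which was not tested.

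Complex V is the ATP synthase. Atp5mpl, a small membrane subunit known as 6.8PL, lay at 11.34, 11.31, 11.37, 11.32 and 11.29 in GFP, 11.84, 11.77, 11.65, 11.88 and 11.62 in Nr4a1, 11.47, 11.42, 11.57, 11.44 and 11.37 in Nr4a3 and 11.22, 11.42, 11.17, 11.45 and 11.51 in untreated arrays. Every Nr4a1 array was above every array of the other 3 groups. Atp5mpl rose by 0.43 ± 0.07 (log2, SE, 1.34-fold) against GFP with a limma adjusted p of 0.000996, and it was called under each of 29 alternatives (adjusted p 1.67e-05 to 0.00479). Against untreated islets the difference was 0.40, with a limma adjusted p of 0.00186.

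The catalytic head subunits Atp5f1a and Atp5f1b, alpha and beta, had differences of 0.37 ± 0.19 and 0.30 ± 0.23 over all arrays (SE, limma adjusted p 0.314 and 0.554). In GFP arrays Atp5f1a lay at 12.11, 11.94, 12.12, 12.06 and 11.86, in Nr4a1 arrays at 12.49, 12.44, 12.40, 12.23 and 12.36 and in Nr4a3 arrays at 12.36, 10.82, 12.26, 12.14 and 12.20. Nr4a1 and GFP arrays did not overlap, and Nr4a3 replicate 2 was far below all other arrays. Without that array the standard errors were 0.07 and 0.06 and both subunits were called (limma adjusted p 0.000771 and 0.00246). Atp5mc3, a gene of the proton-conducting ring, had 0.20 ± 0.08 and was called without it too (adjusted p 0.129 over all arrays and 0.0341 without). The membrane subunit Atp5mg had 0.28 ± 0.35 (limma adjusted p = 0.774), and without Nr4a3 replicate 2 its adjusted p was 0.00774. Atp5if1, the inhibitor of the synthase, had 0.17 ± 0.09 (limma adjusted p = 0.30) and was not called with either set of arrays. The 9 probe sets with several symbols, which were left out and not tested, had Nr4a1 minus GFP from 0.03 to 0.74. The largest was that of Atp5mc1, shared with Atp5mc1l1.

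**Figure D3:**
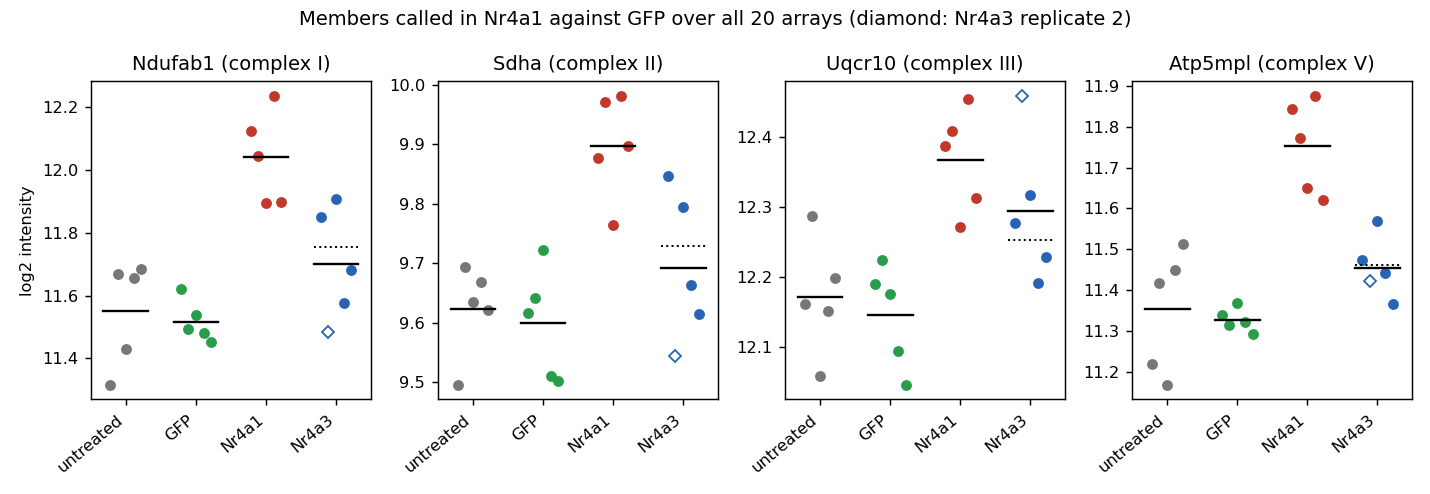
Log2 intensity (vertical axes) of the members called in Nr4a1 against GFP over all arrays, for each array of the 4 groups. Solid lines are group means and the diamond is Nr4a3 replicate 2, which is the highest array for Uqcr10 and is not the lowest for Atp5mpl. Nr4a1 arrays lie above GFP arrays in every panel.

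In islets given the Nr4a3 virus, no member was called against GFP over all arrays, where 1.75% of all genes were called higher. At an unadjusted p under 0.05 there was 1 member, Uqcr10, with 0.15 ± 0.07 (limma adjusted p = 0.352), while 8.24% of all genes were higher at that threshold. The members' median difference was -0.05, against 0.00 over all genes, and 32 of 86 lay above 0. No member had all Nr4a3 arrays above all GFP arrays, against 3.12% of all genes. Without replicate 2, 80 of 86 members lay above 0, the median was 0.09 against 0.02 over all genes, and 3 members were called, while 3.32% of all genes were called higher. In 14 members the 4 remaining Nr4a3 arrays lay above all GFP arrays, against 7.46% of all genes.

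The members called without replicate 2 were Ndufs3, Ndufs7 and Ndufa8, all of complex I. Ndufs3, a subunit of the arm where electrons enter, lay at 10.17, 10.07, 10.17, 10.10 and 10.09 in GFP, 10.42, 8.63, 10.47, 10.34 and 10.38 in Nr4a3 and 10.42, 10.38, 10.42, 10.53 and 10.37 in Nr4a1 arrays. Apart from replicate 2, which is the second Nr4a3 value, every Nr4a3 array was above every GFP array. Its difference was 0.28 ± 0.07 without that array (limma adjusted p = 0.0228) and -0.07 ± 0.24 with it (adjusted p = 0.915).

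Ndufs7, which carries an iron-sulfur centre near the ubiquinone site, lay at 10.60, 10.50, 10.55, 10.30 and 10.41 in GFP and 10.93, 9.21, 10.89, 10.80 and 10.66 in Nr4a3 arrays. Its difference was 0.35 ± 0.09 without replicate 2 (limma adjusted p = 0.0303) and 0.02 ± 0.22 with it. Ndufa8, an accessory subunit, lay at 10.80, 10.81, 10.86, 10.72 and 10.74 in GFP and 11.02, 9.28, 11.07, 10.96 and 11.01 in Nr4a3 arrays. Its difference was 0.23 ± 0.06 without replicate 2 (limma adjusted p = 0.0498, just under the threshold) and -0.12 ± 0.23 with it. In both genes every Nr4a3 array but replicate 2 was above every GFP array.

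The median difference of each complex in Nr4a3 minus GFP changed sign with that array. With it the medians were -0.08 for I, -0.07 for II, -0.10 for III, -0.02 for IV and -0.05 for V. Without it they were 0.11, 0.07, 0.10, 0.07 and 0.11. No direction is therefore given for any complex in this comparison. Some genes set by role changed sign too. Atp5f1b had -0.11 ± 0.23 with and 0.23 ± 0.07 without replicate 2, and Sdhb -0.33 ± 0.25 and 0.05 ± 0.05 (limma adjusted p above the threshold in all 4). Sdha and Atp5if1 did not, at 0.09 and 0.05 with replicate 2 and 0.13 and 0.04 without it. The dim probe set used for Cox5a had 0.47 with and 0.18 without replicate 2. Its brighter probe set, shared with another symbol and not tested, had 0.06 and 0.13. Both receptor groups are set against the same 5 GFP arrays, so a likeness of their differences to GFP is partly built in.

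**Figure D4:**
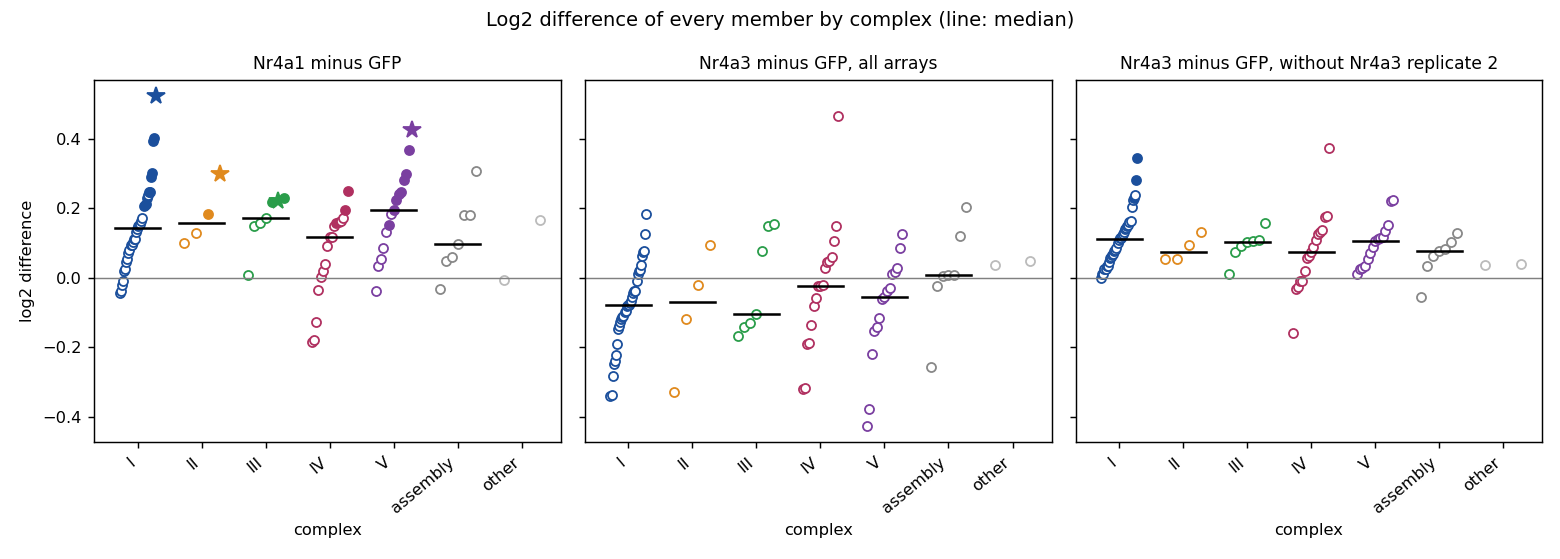
Log2 difference (vertical axis) of every member by complex (horizontal axis) for Nr4a1 minus GFP and for Nr4a3 minus GFP with and without Nr4a3 replicate 2. Stars are members called over all arrays, filled circles members called without replicate 2, open circles members not called, and lines the medians. The complex medians in Nr4a3 minus GFP lie below 0 in the middle panel and above 0 in the right panel.

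The direct comparison of the receptors called no member, with or without replicate 2. The backgrounds were 0.598% of all genes called higher in Nr4a1 than in Nr4a3 over all arrays and 0.816% without it, and 12 and 9 members were higher at an unadjusted p under 0.05, where 6.56% and 5.92% of all genes were. In the other direction 0 and 1 members were lower, with 5.44% of all genes lower without replicate 2. The members' median difference, Nr4a1 minus Nr4a3, was 0.19 with that array and 0.05 without it. Complex V had 0.27 with and 0.08 without, and complex I 0.19 and 0.03. Atp5mpl came closest: it differed by 0.30 ± 0.07 over all arrays (limma adjusted p = 0.0801) and 0.29 ± 0.07 without replicate 2 (adjusted p = 0.0778), and all Nr4a1 arrays were above all Nr4a3 arrays. Over its alternatives that adjusted p ran from 0.0199, with array weights, to 0.342. Ndufa8 was the other member with Nr4a1 arrays above all Nr4a3 arrays (0.52 ± 0.23 over all arrays and 0.17 ± 0.06 without replicate 2, limma adjusted p 0.406 and 0.257). Such a gap between the groups was found in 1.72% of all genes over all arrays and 2.31% without replicate 2, so 2 of 86 members is near the background. Without replicate 2, Ndufv3 was apart in the other direction, at -0.19 ± 0.08 (adjusted p = 0.322), as were 2.2% of all genes. Ndufab1 differed by 0.34 ± 0.10 (adjusted p = 0.139) and Sdha by 0.21 ± 0.07 (adjusted p = 0.286). That more members passed the threshold against GFP with Nr4a1 than with Nr4a3 is thus not shown to be a difference between the receptors.

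The control virus did not move the members detectably. In GFP against untreated none of 86 was called, and 0% of all genes were called higher in limma, with 412 genes at an unadjusted p under 0.05 in either direction. At an unadjusted p under 0.05 there were 2 members, both lower in GFP, as were 1.8% of all genes: Cox6c-ps1 with -0.23 ± 0.08 and Cox8b with -0.21 ± 0.10 (limma adjusted p = 1 for both). Cox8b is dim, at a mean log2 intensity of 4.42. The members' median difference was -0.01.

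Nr4a3 replicate 2 differed member by member. In 61 of 86 members (70.9%) it was below all the other 19 arrays, and in 7 (8.14%) it was above them. Among all genes 32.5% were below and 26.6% above, and among the 542 genes at or above the members' median level 57.7% were below and 15.5% above. Relative to the mean of the other 4 Nr4a3 arrays the median member lay at -0.71, against -0.02 over all genes, -0.43 over those 542 genes and -0.39 over the 73 genes for mitochondrial ribosomal proteins. By complex the medians were -0.82 for I, -0.71 for II, -0.71 for III, -0.40 for IV and -0.73 for V. The median of complex IV was thus near that of those 542 genes, and the medians of I, II, III and V were lower.

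Within complexes the shift was uneven. The lowest was Atp5mg at -2.69, which read 12.40, 9.63, 12.41, 12.17 and 12.31 in the 5 Nr4a3 arrays, and Cox6a1, Atp5f1d, Ndufv3 and Cox4i1 followed at -2.47, -2.46, -2.40 and -2.27. Other subunits of the same complexes barely differed, such as Atp5mk at 0.00, Ndufa1 at 0.04 and Atp5mpl at -0.04. Uqcrh was higher by 0.40. The probe set used for Cox5a was higher by 1.44, but the one it shares with another symbol was lower, at 11.94 against a mean of 12.31 in the other 4 arrays, so no direction is given for Cox5a. These members were picked by size as a description. How the shift of each member relates to the gap between the ends of control transcripts was not tested.

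**Figure D5:**
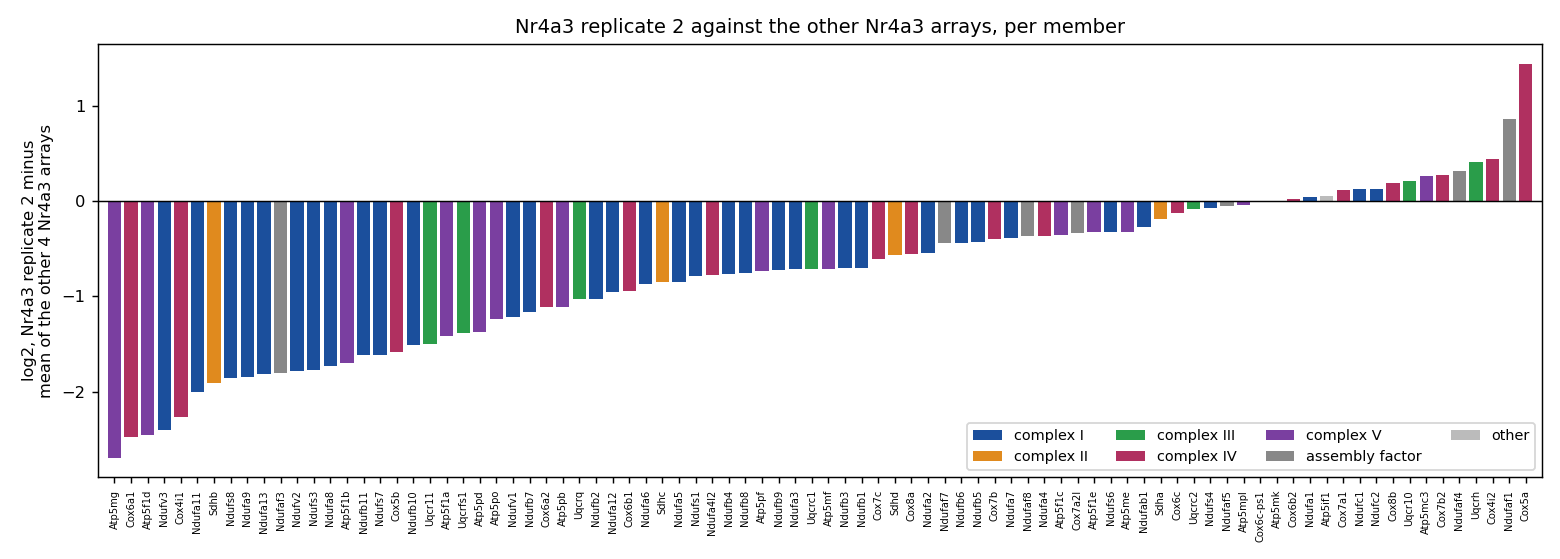
Log2 intensity of Nr4a3 replicate 2 minus the mean of the other 4 Nr4a3 arrays (vertical axis) for each of the 86 members, sorted and coloured by complex. Most bars lie below 0, down to -2.69 for Atp5mg, and bars of all 5 complexes are among them, while the Cox5a probe set used stands at 1.44 and the one shared with another symbol, not drawn, was lower in that array (11.94 against 12.31).

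Other genes of mitochondria were read from lists. Of 3 measured subunits or partners outside the prefixes, Cyc1, the heme subunit of complex III, rose in Nr4a1 against GFP by 0.45 ± 0.09 (limma adjusted p = 0.00394), and Higd1a, a small partner of the respiratory chain, by 0.69 ± 0.15 (adjusted p = 0.00495). Of 34 assembly and heme factors 6 rose and 0 fell with Nr4a1, and 3 rose and 0 fell with Nr4a3 (17.6% and 8.82% of the list, against 6.16% and 1.75% of all genes that rose). Without Nr4a3 replicate 2, 10 rose (29.4%) and 2 fell with Nr4a1, where 12.2% of all genes rose and 6.86% fell. With Nr4a3 4 rose (11.8%, against 3.32% of all genes) and 0 fell. The 2 that fell were Lyrm7, which serves the assembly of complex III, and Cox11, a copper protein for complex IV, with -0.31 ± 0.10 and -0.22 ± 0.07 (limma adjusted p 0.0445 and 0.0425). With Nr4a1 and Nr4a3 in turn, Sdhaf2, which helps insert the flavin of complex II, rose by 0.48 ± 0.06 and 0.39 ± 0.06 (adjusted p 6.65e-05 and 0.00259), Bcs1l, which inserts the Rieske protein into complex III, by 0.59 ± 0.09 and 0.40 ± 0.09 (adjusted p 0.000341 and 0.0266), and Nubpl, an iron-sulfur protein for complex I, by 0.96 ± 0.17 and 0.70 ± 0.17 (adjusted p 0.0013 and 0.0381). Both comparisons share the GFP arrays. Sdhaf2's Nr4a3 call was lost with the mean of its probe sets (adjusted p = 0.155). The Nr4a3 calls of Bcs1l and Nubpl were each lost without GFP replicate 1, 4 or 5 or without Nr4a3 replicate 1 or 3, and Nubpl's also without GFP replicate 2 or 3 or untreated replicate 2.

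Of 73 genes for mitochondrial ribosomal proteins 6 rose with Nr4a1 (8.22%, against 6.16% of all genes), among them Mrps31 by 0.52 ± 0.08 and Mrps24 by 0.49 ± 0.09 (limma adjusted p 0.000265 and 0.000979). With Nr4a3 1 rose (1.37%, against 1.75% of all genes), Mrpl36, by 0.41 ± 0.10 (adjusted p = 0.0292), and this call was lost without GFP replicate 1, 2, 3 or 5 or Nr4a3 replicate 1. Without Nr4a3 replicate 2, 23 rose with Nr4a1 and 5 with Nr4a3 (31.5% and 6.85%, against 12.2% and 3.32% of all genes). Of 24 protein import genes 3 rose with Nr4a1 (12.5%) and 0 with Nr4a3, which became 11 (45.8%) and 0. The import channel partner Tomm7 was among them with Nr4a1 (0.33 ± 0.09, limma adjusted p = 0.0199, lost without GFP replicate 4, Nr4a1 replicate 1 or Nr4a1 replicate 4). The other 2, Timm10b and Timm21, had limma adjusted p of 0.0327 and 0.0495, which ran up to 0.209 and 0.14 over their alternatives, and each call was lost without GFP replicate 1, 2, 4 or 5 and without Nr4a1 replicate 1, 2 or 4, among others. Of 15 carriers, Slc25a13, the aspartate and glutamate carrier, rose by 0.81 ± 0.13 with Nr4a1 (limma adjusted p = 0.000427), as did Mpc2, a subunit of the pyruvate carrier, by 0.47 ± 0.08 (adjusted p = 0.000943), and Vdac3. Without Nr4a3 replicate 2, 9 carriers rose with Nr4a1 and 6 with Nr4a3 (60% and 40% of the list). Gpd2, the mitochondrial glycerol phosphate dehydrogenase, fell by 0.42 ± 0.13 (adjusted p = 0.0452), a call lost in 18 of its alternatives, while 2.55% of all genes fell. Of 18 measured citric acid cycle genes 2 rose with Nr4a1 over all arrays and 7 without Nr4a3 replicate 2 (11.1% and 38.9%), and 0 and 2 with Nr4a3. The first 2 were Sucla2 and Suclg1, subunits of succinyl-CoA ligase, with 0.24 ± 0.07 and 0.38 ± 0.12 (limma adjusted p 0.0356 and 0.0443). Their adjusted p ran up to 0.348 and 0.10 over the alternatives, and either call was lost without any 1 of several GFP or Nr4a1 arrays.

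Of 20 regulators of mitochondrial genes none was called over all arrays with either receptor. With Nr4a1, Esrra, the estrogen-related receptor, had 0.29 ± 0.10 (limma adjusted p = 0.0677), Polg, the mitochondrial DNA polymerase, 0.29 ± 0.10 (adjusted p = 0.0788) and the coactivator Ppargc1b -0.40 ± 0.13 (adjusted p = 0.0779). Without Nr4a3 replicate 2 all 3 passed the threshold, as did Gabpb1. Of the 20 regulators 3 then rose (15%) and 1 fell, where 12.2% of all genes rose and 6.86% fell. These counts are near the background. Of 7 beta cell markers measured, 3 fell with Nr4a1 and 0 rose: the transcription factors Pdx1 by 0.69 ± 0.13 and Nkx6-1 by 0.42 ± 0.12, and the glucose transporter Slc2a2 by 0.56 ± 0.17 (limma adjusted p 0.00141, 0.0296 and 0.0432). Mafa had the largest difference of the 7, -0.80 ± 0.26, and was not called (limma adjusted p = 0.0601). The hormone genes Ins1, Ins2 and Iapp had differences of 0.0025, -0.01 and -0.02 (adjusted p 0.993, 0.969 and 0.968). The mean of the 7 lay at 12.31 to 12.77 in Nr4a1 arrays and 12.77 to 12.91 in GFP arrays, with the highest Nr4a1 array just above the lowest GFP array. Without Nr4a3 replicate 2, 4 of the 7 fell with Nr4a1, where 6.86% of all genes fell. Of 5 endothelial markers 4 fell with Nr4a1 and 2 with Nr4a3. Over all arrays 2.55% of all genes fell with Nr4a1, and 25 of 14217 fell with Nr4a3. The part of these cell types in the members' differences was not tested.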

How the data were processed

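RNA of 20 islet samples was measured on Affymetrix rat arrays, 5 per group. The authors' deposited values are linear intensities per probe set, processed with RMA per the submitters' processing notes (no version is given). RMA forces array distributions to match, so a shift shared by all genes cannot be seen. Array medians were 98.9 to 103.2, and the number of arrays limits the precision.

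Of 31099 probe sets, 20826 had 1 symbol in the platform's table. For each of 14217 genes the brightest was kept. Intensities were taken to log2 and fitted with limma 3.58.1 (R 4.3.3), with 1 mean per group over all 20 arrays, so that groups share 1 estimate of spread. p-values were adjusted by Benjamini-Hochberg over all genes, and genes were called under 0.05. Tables were handled with pandas 2.3.3 and numpy 2.4.6. The fitting was tested on simulated data. The alternatives were leaving out each array, only the 10 arrays compared, array weights, 2 other normalizations, the mean of probe sets, a filter on dim genes, a pseudocount of 16, another prior variance, untreated as control and a replicate block. Named members are those called, the 2 with the smallest p in each complex and comparison, and members set by role or as isoform pairs, with up to 4 genes of each other list. The members, lists and rules were chosen with earlier results of these data known.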

Additional observations from a re-analysis of the deposited data

Results flagged for a closer look

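In each group of 5 arrays the gap between the most extreme array and its nearest neighbour was divided by the group's range, and a ratio above 0.71 marked a far array. Of 152 such groups examined, for complex means and named members, 25 had one, and Nr4a3 replicate 2 was that array in 20. Chance alone marks about 1 in 20 groups, and the members share arrays, so these are not separate observations.

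Among complex means of Nr4a3 arrays, replicate 2 was far from the other 4 with ratios of 0.88 for complex I, 0.891 for II, 0.851 for III, 0.893 for IV and 0.887 for V. In complex II the mean of GFP replicate 3 also stood apart (0.729).

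Among members, Nr4a3 replicate 2 was the low array for Sdhb (0.952), Cox6a1 (0.941), Cox4i1 (0.937), Atp5mg (0.913), Atp5f1b (0.909), Uqcrq (0.907), Ndufv1 (0.889), Uqcrfs1 (0.886), Atp5f1a (0.855), Cox6b1 (0.824), Cox8a (0.791), Cox7c (0.784) and Uqcrc1 (0.758). It was the high array for Cox5a (0.717) and Uqcrh (0.716). The remaining cases were GFP replicate 4 for Atp5if1 (0.842), and in untreated islets replicate 1 for Cox4i2 (0.786), replicate 3 for Ndufa4 (0.782) and replicate 2 for Ndufv1 (0.803).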

How the results depend on the processing

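The number of members called in Nr4a1 against GFP ran from 3 to 30 and in Nr4a3 against GFP from 0 to 3 when single arrays were left out, with the upper end reached only without Nr4a3 replicate 2. With array weights 34, 2 and 1 members were called in Nr4a1 against GFP, Nr4a3 against GFP and Nr4a1 against Nr4a3. The weight of Nr4a3 replicate 2 was 0.0419, against 0.547 to 2.81 for the other arrays, so this fit nearly leaves that array out. With only the 10 arrays compared 31 were called in Nr4a1 against GFP. Under the other alternatives 3 or 4 were called in Nr4a1 against GFP and 0 in the other comparisons.

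Repeated quantile normalization lowered the complex medians of Nr4a1 minus GFP to 0.0891 for complex I, 0.0927 for complex II, 0.13 for complex III, 0.0585 for complex IV and 0.13 for complex V. With untreated as the control the median was 0.0258 for complex IV, and with the mean of probe sets 0.22 for complex III. The median of Nr4a3 minus GFP was 0.0876 for complex III with array weights, and for complex III it ran from -0.15 to 0.10 when single arrays were left out.

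Of 126 named values 27 changed sign in at least 1 alternative, 13 of them only without Nr4a3 replicate 2 or with array weights. Both settings take out most of that array's weight, so they are not separate alternatives. The cause of the changes was not tested. Array weights turned Nr4a3 minus GFP to 0.19 for Atp5f1a, 0.19 for Atp5f1b, 0.0859 for Atp5mg, 0.0941 for Cox4i1, -0.0052 for Cox4i2, 0.13 for Cox6a1, 0.0834 for Cox6b1, 0.0154 for Cox6b2, 0.0823 for Cox8a, 0.19 for Ndufa8, 0.11 for Ndufs1, 0.26 for Ndufs3, 0.13 for Ndufv1, 0.0358 for Sdhb and 0.0892 for Uqcrfs1. They turned Nr4a1 minus GFP to -0.0003 for Cox8b and -0.0099 for Uqcrc1. Median centring turned it to -0.0264 for Cox6b2, -0.0101 for Cox8b, -0.0107 for Ndufs1 and -0.0208 for Uqcrc1. Repeated quantile normalization turned it to -0.0181 for Ndufs1 and -0.0496 for Uqcrc1, and Nr4a3 minus GFP to -0.0278 for Cox8b. With untreated as the control, Nr4a1 had -0.16 for Cox5a, 0.0098 for Cox6a2, -0.11 for Cox6b2, -0.0061 for Cox8a and -0.19 for Cox8b. Nr4a3 had 0.0011 for Atp5f1a, -0.18 for Cox8b, -0.0424 for Higd2a and 0.0453 for Ndufs1. The value of Cox5a is that of its dim probe set. The brighter one, left out and not tested, had means of 12.47 in Nr4a1 and 12.19 in untreated arrays.

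When single arrays were left out, Nr4a3 minus GFP ran from -0.16 to 0.22 for Atp5f1a, -0.22 to 0.23 for Atp5f1b, -0.58 to 0.11 for Atp5mg, -0.44 to 0.14 for Cox4i1, -0.46 to 0.18 for Cox6a1, -0.0414 to 0.37 for Cox6a2, -0.16 to 0.11 for Cox6b1, -0.0625 to 0.0387 for Cox6b2, -0.0652 to 0.0903 for Cox8a and -0.0136 to 0.0774 for Cox8b. It ran from -0.0518 to 0.23 for Higd2a, -0.22 to 0.23 for Ndufa8, -0.12 to 0.11 for Ndufs1, -0.18 to 0.28 for Ndufs3, -0.0853 to 0.35 for Ndufs7, -0.16 to 0.16 for Ndufv1, -0.44 to 0.0531 for Sdhb, -0.19 to 0.0126 for Uqcrc1 and -0.26 to 0.11 for Uqcrfs1. Nr4a1 minus GFP ran from -0.37 to 0.0026 for Cox6a2, -0.0363 to 0.0648 for Cox6b2, -0.0334 to 0.0678 for Cox8b and -0.0181 to 0.0303 for Uqcrc1.

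With the replicate number as a block, 4 members were called in Nr4a1 against GFP and 0 in the other comparisons. Arrays with the same number did not clearly deviate together. The correlation of their deviations from the group means averaged 0.0052, against 0.0015 for pairs with other numbers. Nr4a3 replicate 2 was included in these means, so it also shaped the deviations of the other Nr4a3 arrays. The correlations were not repeated without it. The correlation passed 0.1 in 7 of 30 pairs with the same number and in 39 of 120 others, and 4 of 20 arrays matched best with their own number. The animals behind the samples are not given, so these correlations cannot tell whether samples of the same number share more than it.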
